A study of Homo sapiens with 12 samples.

Results

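The retinoid genes described here are 10 genes of retinoic acid synthesis, transport and reception, out of 58302 gene identifiers in the count table. They were taken by name, after identifiers were matched to symbols. The list was chosen by levels of these data already seen, namely that *RARB* was lower after ML355 and that *ALDH1A1* was present on only one side of a split among the libraries. The levels of the 10 genes in these comparisons are therefore a description. A p-value for them is given only for a comparison whose difference the choice did not use, and none is given for *ALDH1A1*. Nothing is read from the calls of the 10 genes in the other comparisons. The genes are *STRA6* (uptake), *DHRS3* and *DHRS9* (oxidoreductases), *ALDH1A1* and *ALDH1A3* (retinaldehyde dehydrogenases), *CRABP2* (binding protein), and *RARA*, *RARB*, *RARG* and *RXRA* (receptors).

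Cells take up retinol, oxidize it reversibly to retinaldehyde and then irreversibly to retinoic acid. Retinoic acid is carried to the nucleus by a binding protein, where it binds a retinoic acid receptor (RAR) paired with a retinoid X receptor (RXR) on DNA, and it is cleared by the CYP26 hydroxylases. In airway epithelium retinoic acid is known for favouring mucociliary over squamous differentiation, and *RARB*, *CYP26A1*, *DHRS3* and *STRA6* are themselves known as genes that retinoic acid induces.

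Sequencing of RNA from NCI-H520, a human lung squamous cell carcinoma line, gave 12 libraries, 3 for each of 4 labelled groups. The cells carried *L1-FGGY*, a chimeric transcript of a LINE-1 element and *FGGY*, in a lentivirus (OV-L1-FGGY), or the empty vector (OV-CTRL). OV-L1-FGGY cells received the 12-LOX inhibitor ML355 at 10 μM, the reverse transcriptase inhibitor NVR at 450 μM, or DMSO alone, and the OV-CTRL cells received DMSO alone. Both inhibitors were dissolved in DMSO, and an equal volume of DMSO, 0.2% of the medium, went to the cells without inhibitor. The label of the control says only control and DMSO, and it was read as OV-CTRL. The medium was replaced 5 h after seeding, and the length of treatment is not given in the sources used here. Each line was a stable line, and the labels do not say whether the 3 libraries of a group came from separate cultures. The p-values therefore judge a difference against the spread between libraries within all 4 groups, which may be technical.

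Total counts per library ran from 16242082 to 27004768. *FGGY* was at 287 and 318 counts scaled to library size (CPM) in OV-L1-FGGY with DMSO and with ML355, but at 4.25 CPM in the NVR-labelled libraries against 3.41 CPM in OV-CTRL. The NVR label names OV-L1-FGGY cells, but *FGGY* in these libraries lay near that of OV-CTRL, and the reason was not tested. They are therefore called the libraries labelled NVR, or NVR-labelled, and any direction for NVR is only as good as the label. Across genes, log2 CPM correlated at 0.979 or more within a group and at 0.932 or more between groups of a side, but at 0.706 to 0.774 across the sides, with OV-L1-FGGY with DMSO and with ML355 on one side and OV-CTRL and the NVR-labelled libraries on the other. Of 7 squamous markers, *KRT6A* and *DSG3* were at 0 in every library, *KRT5* had at most 3 counts, and *SOX2* was at 0 in OV-L1-FGGY with DMSO and with ML355. *KRT14* went the other way, with 0 counts in OV-CTRL and in the NVR-labelled libraries, 4 to 10 counts in OV-L1-FGGY with DMSO and 29 to 63 with ML355. The summed squamous markers ran from 0.860 to 3.47 CPM on the *FGGY*-high side and from 9.00 to 21.3 CPM on the other. Fibroblast markers, of which *DCN* was at 0 in OV-CTRL and in the NVR-labelled libraries, summed to between 106 and 123 CPM in OV-L1-FGGY with DMSO, 46.4 and 58.4 with ML355, 19.8 and 25.2 in OV-CTRL, and 19.6 and 22.1 with NVR. Adenocarcinoma markers summed to at most 0.789 CPM on the *FGGY*-high side and at least 4.46 on the other, and neuroendocrine markers to at most 0.841 and at least 5.20. Leukocyte markers summed to between 0.655 and 3.71 CPM on the *FGGY*-high side and to at most 0.0841 on the other. Among them *PTPRC* had 13 to 33 counts in OV-L1-FGGY with DMSO, 42 to 71 with ML355, and 0 in OV-CTRL and in the NVR-labelled libraries. The part of these differences in the results was not tested. In bulk RNA, fewer cells of a type and less RNA per cell cannot be told apart. Between OV-L1-FGGY and OV-CTRL, the construct and the stable line that carried it cannot be told apart either.

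Of the 10 genes, 9 passed edgeR's filter on low counts. All levels below are CPM scaled by TMM, a correction for library composition, and each ± is an SD over n = 3 libraries. Log2 fold changes come from edgeR's quasi-likelihood fit of all 4 groups to 17849 genes, and a gene was called when its p-value, adjusted by Benjamini-Hochberg over these genes, was under 0.01. The plot of the 10 genes by library shows a separation of the sides for *STRA6*, *DHRS3*, *ALDH1A1*, *RARA* and *RARG* that is wide against the spread within groups, while *CRABP2* and *RXRA* show no such separation.

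**Figure D1:**
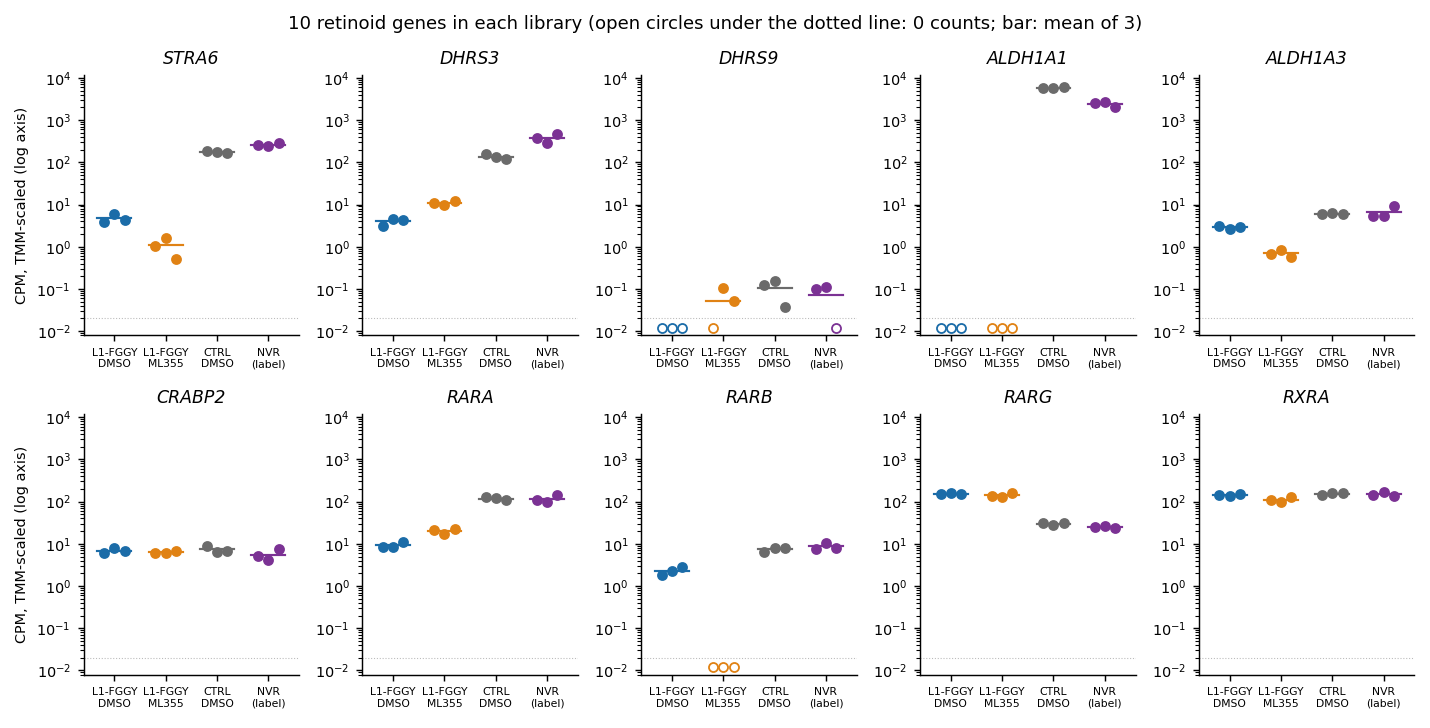
CPM (TMM-scaled, log axis) of each of the 10 genes in each library; filled points are libraries, bars are means of 3, and open circles under the dotted line are libraries with 0 counts. *ALDH1A1* was at 0 in all 6 libraries of OV-L1-FGGY with DMSO and with ML355, and *RARB* was at 0 in the 3 ML355 libraries.

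*STRA6* (ENSG00000137868, chromosome 15, 74179466 to 74212267 of hg38) encodes the membrane receptor through which cells take up retinol from its plasma carrier. Its CPM values were 3.90, 6.10 and 4.28 in OV-L1-FGGY with DMSO and 1.03, 1.65 and 0.525 with ML355. They were 184, 177 and 168 in OV-CTRL and 261, 244 and 280 in the NVR-labelled libraries. No group overlapped another, and the order was ML355, DMSO, OV-CTRL, NVR from lowest to highest. *STRA6* had a log2 fold change of -2.15 (SE 0.26) for ML355 against DMSO and of -5.21 (SE 0.21) for OV-L1-FGGY against OV-CTRL (both with DMSO). Against OV-CTRL, the NVR-labelled libraries were at 0.57 (SE 0.17, edgeR adjusted p = 0.0112), which missed the threshold. It passed under DESeq2 (log2 fold change 0.61, adjusted p = 2.08e-04), under limma voom (0.57, adjusted p = 0.00136) and without NVR replicate 2 (0.62, edgeR adjusted p = 0.00488). It also passed with DESeq2 size factors (0.61), with at least 10 counts in every library (0.60), with no filter (0.54) and with only the 2 groups fitted (0.57). The call was absent with library size alone and with the replicate number as a block. Of the 6 fits with a library left out, 1 gave the call. An antisense-strand neighbour, *CCDC33*, covers 6.77% of the exon bases of *STRA6*, and the strand setting of the counting is not stated.

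*DHRS3* (ENSG00000162496, chromosome 1, 12567910 to 12618210) encodes a reductase that returns retinaldehyde to retinol. It measured 3.15, 4.47 and 4.33 CPM in OV-L1-FGGY with DMSO and 10.6, 9.53 and 12.1 CPM with ML355. In OV-CTRL it measured 159, 131 and 122 CPM, and in the NVR-labelled libraries 372, 292 and 457 CPM. The groups did not overlap, and unlike *STRA6* the gene was higher with ML355 than with DMSO, by a log2 fold change of 1.43 (SE 0.19). *DHRS3* was higher in the NVR-labelled libraries than in OV-CTRL by 1.45 (SE 0.16, edgeR adjusted p = 4.07e-06), and this call held with each library left out, at 1.29 to 1.60. Across the sides the difference was -5.10 (SE 0.20) for OV-L1-FGGY against OV-CTRL (both with DMSO). *DHRS9* (ENSG00000073737, chromosome 2, 169064789 to 169096167), a retinol dehydrogenase gene, had at most 4 counts in any library and was the one gene of the 10 that did not pass the filter.

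*ALDH1A1* (ENSG00000165092, chromosome 9, 72900671 to 73080442) encodes a retinaldehyde dehydrogenase, the class of enzyme that makes retinoic acid. It had 0 counts in each of the 6 libraries of OV-L1-FGGY with DMSO and with ML355. It had 139426, 150477 and 155581 counts in replicates 1 to 3 of OV-CTRL and 49457, 73574 and 37780 counts in those of the NVR-labelled libraries. In CPM this was 5906 ± 54.9 in OV-CTRL and 2424 ± 329 in the NVR-labelled libraries, so that *ALDH1A1* took 0.603% and 0.224% of all counts and ranked between 3 and 5, and between 28 and 64, among all genes by count. Against a floor of 3 counts per library, under which no fold change is given, *ALDH1A1* was at least 34320-fold lower in OV-L1-FGGY with DMSO than in OV-CTRL. Within the side that expressed it, *ALDH1A1* was lower in the NVR-labelled libraries than in OV-CTRL by a log2 fold change of -1.28 (SE 0.14). The difference was -1.37 to -1.17 with each library left out, and the groups did not overlap. *ALDH1A1* was chosen by its presence in these 2 groups, so this difference is a description as well.

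*ALDH1A3* (ENSG00000184254, chromosome 15, 100877714 to 100916626) encodes another retinaldehyde dehydrogenase. It lay at 3.04, 2.68 and 2.97 CPM in OV-L1-FGGY with DMSO and at 0.690, 0.824 and 0.578 CPM with ML355. It lay at 5.93, 6.22 and 5.87 CPM in OV-CTRL and at 5.30, 5.29 and 9.44 CPM in the NVR-labelled libraries. ML355 libraries were thus the lowest, with a log2 fold change of -2.04 (SE 0.30) against DMSO, and OV-L1-FGGY with DMSO was at -1.05 (SE 0.24) against OV-CTRL. OV-CTRL and the NVR-labelled libraries overlapped, with a difference of 0.14 (SE 0.22, edgeR adjusted p = 0.622). The antisense gene *ALDH1A3-AS1* covers 32.1% of the exon bases of *ALDH1A3*, and without the strand setting reads of the 2 genes cannot be told apart.

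Values per kb of exon, here and below, use the length of all annotated exons of a gene together. A gene whose transcripts use only part of them comes out too low, so shares between genes depend on the annotation. On this scale the sum of *ALDH1A1*, *ALDH1A2* and *ALDH1A3* was 1.05 CPM per kb in OV-L1-FGGY with DMSO and 0.200 with ML355. It was 2081 in OV-CTRL and 855 in the NVR-labelled libraries. *ALDH1A1* made up 99.9% of this sum in OV-CTRL and 99.8% in the NVR-labelled libraries. On the other side *ALDH1A3* made up 52.1% with DMSO and 66.0% with ML355, and *ALDH1A2* the remaining 47.9% and 34.0%. *ALDH1A2*, the third enzyme of this family, was not among the 10 genes. It had 84, 61 and 85 counts in OV-L1-FGGY with DMSO and 13, 13 and 7 with ML355, and fell by 2.86 on the log2 scale (SE 0.42, edgeR adjusted p = 2.97e-05). It had 3, 5 and 2 counts in OV-CTRL and 3, 0 and 0 in the NVR-labelled libraries, so that its order across the sides was the opposite of that of *ALDH1A1* and *ALDH1A3*.

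*CRABP2* (ENSG00000143320, chromosome 1, 156699606 to 156705816) encodes the cytosolic protein that hands retinoic acid to RAR. It lay at 6.82 ± 0.946 CPM in OV-L1-FGGY with DMSO, 6.29 ± 0.342 with ML355, 7.47 ± 1.31 in OV-CTRL and 5.58 ± 1.75 in the NVR-labelled libraries. All groups that were compared overlapped. The difference of the NVR-labelled libraries from OV-CTRL was -0.43 (SE 0.21, edgeR adjusted p = 0.113) on the log2 scale.

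*RARB* (ENSG00000077092, chromosome 3, 24687887 to 25597932) encodes the beta receptor, whose gene is a known direct target of retinoic acid. *RARB* had 32, 42 and 55 counts in OV-L1-FGGY with DMSO and 0 counts in each ML355 library. It had 153, 204 and 206 counts in OV-CTRL and 154, 277 and 147 in the NVR-labelled libraries. In CPM these were 2.27 ± 0.471 with DMSO, 7.44 ± 0.869 in OV-CTRL and 8.68 ± 1.38 with NVR. *RARB* was at least 14.4-fold lower with ML355 than with DMSO, against a floor of 3 counts per library. OV-L1-FGGY with DMSO lay below OV-CTRL by a log2 fold change of -1.70 (SE 0.22), while the NVR-labelled libraries and OV-CTRL overlapped, at 0.23 (SE 0.20, edgeR adjusted p = 0.381).

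The promoters of the 10 genes were searched because retinoic acid receptors are known to bind paired hexamers. In RefSeq windows of 250 bases before to 50 after each start (GRCh38.p14), all 10 genes had a window, 25 windows in all. The consensus hexamer AGGTCA, the variant AGTTCA, the variant GGGTCA and the variant GGTTCA were searched on both strands as direct repeats with a spacer of 5 (DR5), 2 (DR2) or 1 (DR1), with overlaps between motifs allowed. A DR5 lay in 0.0883% of 35116 windows of all genes, a DR1 in 0.131% and a DR2 in 0.0399%. Of the 10 genes only *RARB* held one of these in its windows, a DR5, and of 42 other retinoid genes with a window only *CYP26A1*, also a DR5. The stretches are given 5′ to 3′ on the strand of the repeat with the hexamers in capitals, at chr3:25428203-25428232 on the plus strand for *RARB*, where the first base of the repeat is at -53 from the start, and at chr10:93073796-93073825 on the minus strand for *CYP26A1*, a gene on the plus strand.
RARB: cgggtagGGTTCAccgaaAGTTCActcgca
CYP26A1: acaattAGTTCAcccaaAGTTCAtctttaa
A match describes the letters of the window and not binding in these cells, and windows without a match say nothing of the receptor.

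*CYP26A1*, which clears retinoic acid, had 0, 1 and 0 counts in OV-L1-FGGY with DMSO and 0 in each ML355 library. It had 58, 60 and 61 counts in OV-CTRL and 9, 14 and 11 in the NVR-labelled libraries. *CYP26A1* fell by 2.17 on the log2 scale in the NVR-labelled libraries against OV-CTRL (SE 0.37, edgeR adjusted p = 3.83e-04), and its values did not overlap between them. A gene on the same strand, ENSG00000285846, covers 25.3% of the exon bases of *CYP26A1*. *RARB* and *CYP26A1*, which hold the 2 sequences above, both had 0 counts in the ML355 libraries, where the 3 counts that 0 allows are 0.148 to 0.158 CPM. For *CYP26A1* no change with ML355 can be read, since it had 0, 1 and 0 counts with DMSO. *RARB* was chosen by its lower level after ML355, so nothing is read from the shared 0. In the NVR-labelled libraries *RARB* overlapped OV-CTRL and *CYP26A1* did not.

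*RARA* (ENSG00000131759, chromosome 17, 40309180 to 40357643) encodes the alpha receptor. *RARA* measured 8.60, 8.52 and 11.3 CPM in OV-L1-FGGY with DMSO and 21.3, 16.7 and 22.5 CPM with ML355. It measured 127, 120 and 108 CPM in OV-CTRL and 107, 97.1 and 141 CPM in the NVR-labelled libraries. The gene was higher with ML355 than with DMSO, by a log2 fold change of 1.09 (SE 0.17), and lower in OV-L1-FGGY with DMSO than in OV-CTRL, by -3.64 (SE 0.17). OV-CTRL and the NVR-labelled libraries overlapped, at -0.05 (SE 0.15, edgeR adjusted p = 0.837). Opposite-strand *RARA-AS1* covers 11.7% of its exon bases.

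*RARG* (ENSG00000172819, chromosome 12, 53210567 to 53232980) encodes the gamma receptor, the main RAR of skin. In CPM *RARG* was at 149, 156 and 153 in OV-L1-FGGY with DMSO and at 138, 129 and 161 with ML355. It was at 31.6, 28.0 and 30.3 in OV-CTRL and at 24.9, 26.1 and 24.3 in the NVR-labelled libraries. *RARG* was the only one of the 10 genes with a higher mean in OV-L1-FGGY with DMSO than in OV-CTRL, by a log2 fold change of 2.35 (SE 0.11). With DMSO and with ML355 it overlapped, at -0.10 (SE 0.10). The libraries labelled NVR lay below OV-CTRL without overlap, but the difference of -0.26 (SE 0.11, edgeR adjusted p = 0.0629) missed the threshold.

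Summed per kb of exon, the 3 RAR genes came to 32.0 ± 0.836 CPM per kb in OV-L1-FGGY with DMSO, 32.1 ± 3.77 with ML355, 31.6 ± 2.13 in OV-CTRL and 30.0 ± 4.58 in the NVR-labelled libraries. The ranges of the 4 groups overlapped, while the composition differed between the sides. *RARG* made up 93.0% ± 1.07 of the sum with DMSO and 86.8% ± 1.04 with ML355, but 18.6% ± 1.42 in OV-CTRL and 16.6% ± 2.89 with NVR. *RARA* made up 6.23% ± 0.947, 13.2% ± 1.04, 78.9% ± 1.62 and 80.3% ± 3.68 in the same order. *RARB* never exceeded 4.08% of the sum in any library. The sum and the shares are a description over libraries scaled by TMM, and they depend on the annotated exon lengths.

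**Figure D2:**
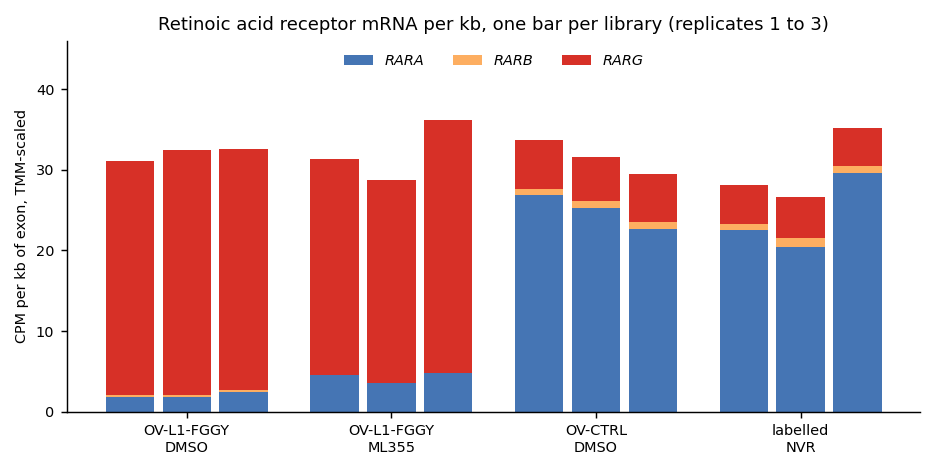
CPM per kb of exon (TMM-scaled, linear axis from 0) of *RARA*, *RARB* and *RARG*, stacked, 1 bar per library in replicate order within each group. The height of the stack is near 30 in the 4 groups, with *RARG* the larger part in OV-L1-FGGY with DMSO and with ML355 and *RARA* the larger part in OV-CTRL and in the NVR-labelled libraries.

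*RXRA* (ENSG00000186350, chromosome 9, 134317098 to 134440585) encodes the alpha retinoid X receptor, the shared partner of RAR and other nuclear receptors. *RXRA* was at 142, 139 and 151 CPM in OV-L1-FGGY with DMSO and 108, 98.4 and 128 CPM with ML355. It was at 144, 161 and 161 CPM in OV-CTRL and 140, 170 and 135 CPM in the NVR-labelled libraries. The ML355 libraries lay below DMSO without overlap, with a log2 fold change of -0.37 (SE 0.12), and the other groups compared overlapped. This difference was not called. It was called with library size alone (-0.50), under DESeq2 (-0.35) and with at least 10 counts in every library (-0.39). It was also called with only the 2 groups fitted (-0.36) and without ML355 replicate 3 (-0.48). The choice of the genes used this comparison, so nothing is read from these calls. Per kb, *RXRA* was at 11.9, 9.24, 12.9 and 12.3 CPM in the order OV-L1-FGGY with DMSO, ML355, OV-CTRL and NVR, below the sum of the RAR genes in each group. The difference of the NVR-labelled libraries from OV-CTRL was -0.07 (SE 0.12, edgeR adjusted p = 0.685).

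Of the 10 genes, 8 had a fold change or a bound for ML355 against DMSO, of which *DHRS3* and *RARA* were called higher and *STRA6*, *ALDH1A3* and *RARB* lower, where 44.8% of all genes were called. For OV-L1-FGGY against OV-CTRL (both with DMSO), 7 of the 9 genes tested were called, 6 lower and *RARG* higher, where 68.7% of all genes were called. For NVR against DMSO in OV-L1-FGGY, 7 of 9 were called, 6 higher and *RARG* lower, where 73.6% of all genes were called. The last 2 comparisons share the DMSO libraries of OV-L1-FGGY, and the first shares them as well. These counts use the values by which the genes were chosen, and nothing is read from them. In the NVR-labelled libraries against OV-CTRL, whose difference the choice did not use, *DHRS3* was called higher and *ALDH1A1* lower. These were 2 of 9 tested, where 29.8% of all genes were called, 14.5% higher and 15.3% lower. *ALDH1A1* was chosen by its presence in both groups, so nothing is read from its call. The median log2 fold change of the 9 genes was -0.05 against 0.00 for all genes. *DHRS3* and *ALDH1A1* both encode enzymes that act on retinaldehyde, which DHRS3 reduces and ALDH1A1 oxidizes, and so does *ALDH1A3*, which was not called. With 2 of 9 called beside 29.8% of all genes, nothing is read from this shared role.

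**Figure D3:**
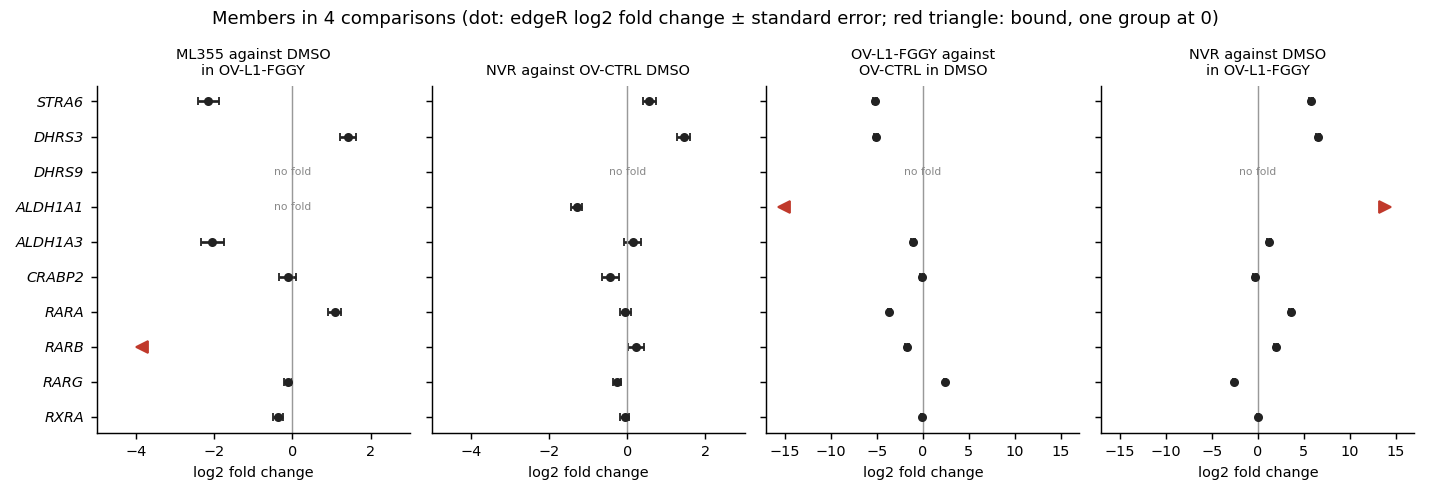
Log2 fold change (x axis, edgeR) of the 10 genes in 4 comparisons; dots carry standard errors, and red triangles mark lower bounds on the size of a change where one group was at 0 counts. The x axis is wider in the right-hand panels, where *ALDH1A1* lies at its bounds of at least 34320-fold lower and at least 14086-fold higher.

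A further 57 retinoid genes were listed by role, of which 41 passed the filter on low counts and 6 had no count in any library. After ML355, 4 of the 36 with a fold change rose and 13 fell, 17 called in all, where 21.3% of all genes were called higher and 23.5% lower. With a library left out, 12 to 14 of these genes were called. Their median log2 fold change was -0.44 against 0.00 for all genes. The values for all genes cover the 17849 genes fitted, also those at or under 3 counts in both groups, which the 36 leave out. Among the oxidoreductases 2 rose and 5 fell. *RDH10*, the main retinol dehydrogenase of the embryo, fell from 24.2 ± 2.99 to 8.43 ± 2.15 CPM, by 1.53 on the log2 scale (SE 0.18, edgeR adjusted p = 2.68e-06). *RDH14* fell by 0.96 (SE 0.15, edgeR adjusted p = 3.77e-05). *AKR1C3*, an aldo-keto reductase with near-identical relatives whose reads may be split, fell by 1.36 (SE 0.13, edgeR adjusted p = 2.24e-07).

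Of the CYP26 genes, *CYP26B1* fell after ML355 from 36.4 ± 1.59 to 22.1 ± 3.62 CPM (log2 fold change -0.72, SE 0.19, edgeR adjusted p = 0.00366), a call lost without DMSO replicate 2 or 3 or ML355 replicate 1 or 3, at -0.73, -0.69, -0.59 and -0.74. *CYP26C1* had at most 1 count in any library. *RBP4*, the plasma carrier of retinol, fell by 0.91 (SE 0.27, edgeR adjusted p = 0.00894), a call that held only without ML355 replicate 1 among the 6 libraries left out in turn, with -1.13 to -0.67 over the 6. Among the coregulators *PRAME*, a repressor of RAR signalling with a family of close relatives, fell by 0.56 (SE 0.10, edgeR adjusted p = 1.17e-04). *NCOR1*, a corepressor, rose by 0.57 (SE 0.16, edgeR adjusted p = 0.00583), but its call was lost with library size alone as the scaling (0.44) and without DMSO replicate 1 or 2 or ML355 replicate 1 or 2, at 0.53, 0.51, 0.54 and 0.55. *FABP5*, *RXRB* and *PPARD*, which carry or receive retinoids and fatty acids, were not called, at -0.39, 0.27 and 0.00.

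Of 11 genes known to rise with retinoic acid, 9 had a fold change after ML355, of which 1 rose and 3 fell, beside 21.3% and 23.5% of all genes. *BHLHE40*, a clock-linked repressor, measured 121, 106 and 131 CPM with DMSO and 1576, 1046 and 1537 CPM with ML355, and rose by 3.54 on the log2 scale (SE 0.17, edgeR adjusted p = 2.80e-10). *RARRES1*, named for its induction by retinoids, had 54, 60 and 52 counts with DMSO and 4, 11 and 10 with ML355, and fell by 2.78 (SE 0.29, edgeR adjusted p = 6.40e-07). *MEIS2*, a homeobox gene, fell by 1.55 (SE 0.19, edgeR adjusted p = 5.52e-06). *TGM1*, the transglutaminase of the cornified envelope and a gene that retinoic acid is known to lower, had 68, 58 and 47 counts with DMSO and 8, 3 and 15 with ML355, and fell by 2.79 (SE 0.42, edgeR adjusted p = 3.19e-05). *SPRR1B* and *IVL* had no count in any library.

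In the NVR-labelled libraries against OV-CTRL, 7 of the 41 other genes rose and 5 fell, 12 in all, beside 14.5% and 15.3% of all genes. Their median log2 fold change was -0.12 against 0.00 for all genes. The count was 7 without OV-CTRL replicate 2, 6 without OV-CTRL replicate 3 and 6 without NVR replicate 1. Oxidoreductase genes gave 4 rises and no fall. *DHRS4*, which has near-identical neighbours, rose from 20.2 ± 3.33 to 38.2 ± 8.50 CPM (log2 fold change 0.92, SE 0.17, edgeR adjusted p = 5.95e-04), and *RDH13* rose by 0.65 (SE 0.14, edgeR adjusted p = 0.00170), a call lost with library size alone (0.47) or with only the 2 groups fitted (0.64). *RDH16* had 16, 6 and 10 counts in OV-CTRL and 37, 35 and 41 with NVR (2.05, SE 0.48, edgeR adjusted p = 0.00275), a call lost without OV-CTRL replicate 2 or 3 or NVR replicate 1 or 3, at 1.75, 1.97, 2.02 and 1.87.

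Among genes known to rise with retinoic acid, 3 of 11 rose in the NVR-labelled libraries against OV-CTRL and none fell. Of all genes, 14.5% were called higher and 15.3% lower. *RARRES1* measured 10.3, 8.92 and 8.02 CPM in OV-CTRL and 19.8, 18.8 and 17.1 CPM with NVR, a rise of 1.03 (SE 0.18, edgeR adjusted p = 2.31e-04). Opposite-strand *MFSD1* and ENSG00000240207 cover 14.4% and 11.2% of its exon bases. *PLAAT4*, also called a retinoid-induced gene, rose by 1.25 (SE 0.25, edgeR adjusted p = 8.78e-04), a call lost with only the 2 groups fitted (adjusted p = 0.0101). *RARRES1* and *PLAAT4* rose while *CYP26A1* fell and *RARB* was not called. *RBP5*, a cellular retinol binding protein gene of which 51.9% of exon bases lie under *C1RL-AS1*, fell by 1.78 (SE 0.39, edgeR adjusted p = 0.00191), a call lost without OV-CTRL replicate 3 (-1.46) or NVR replicate 1 (-1.59), or with only the 2 groups fitted (-1.77). *TGM1* (-0.67, edgeR adjusted p = 0.183), *CYP26B1* (-0.03, 0.912), *FABP5* (-0.27, 0.261), *RXRB* (0.15, 0.331) and *PPARD* (0.22, 0.130) were not called.

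Of the 8 coregulators 3 fell and none rose in the same comparison, beside 15.3% and 14.5% of all genes. *NRIP1*, a corepressor whose values overlapped between the groups, was at -1.03 (SE 0.28, edgeR adjusted p = 0.00675), *NCOA2*, a coactivator, at -0.67 (SE 0.18, edgeR adjusted p = 0.00672) and *TBL1XR1*, a subunit of the NCOR complex, at -0.44 (SE 0.12, edgeR adjusted p = 0.00596). All 3 calls were lost without OV-CTRL replicate 2 or 3 or NVR replicate 1 or 3, with values of -1.03, -0.80, -0.99 and -0.71 for *NRIP1*, -0.70, -0.52, -0.59 and -0.52 for *NCOA2*, and -0.46, -0.36, -0.46 and -0.35 for *TBL1XR1*. With only the 2 groups fitted, the 3 calls were lost as well (edgeR adjusted p = 0.0444 for *NRIP1*, 0.0333 for *NCOA2* and 0.0186 for *TBL1XR1*), and that of *TBL1XR1* also with DESeq2 size factors (-0.40).

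**Figure D4:**
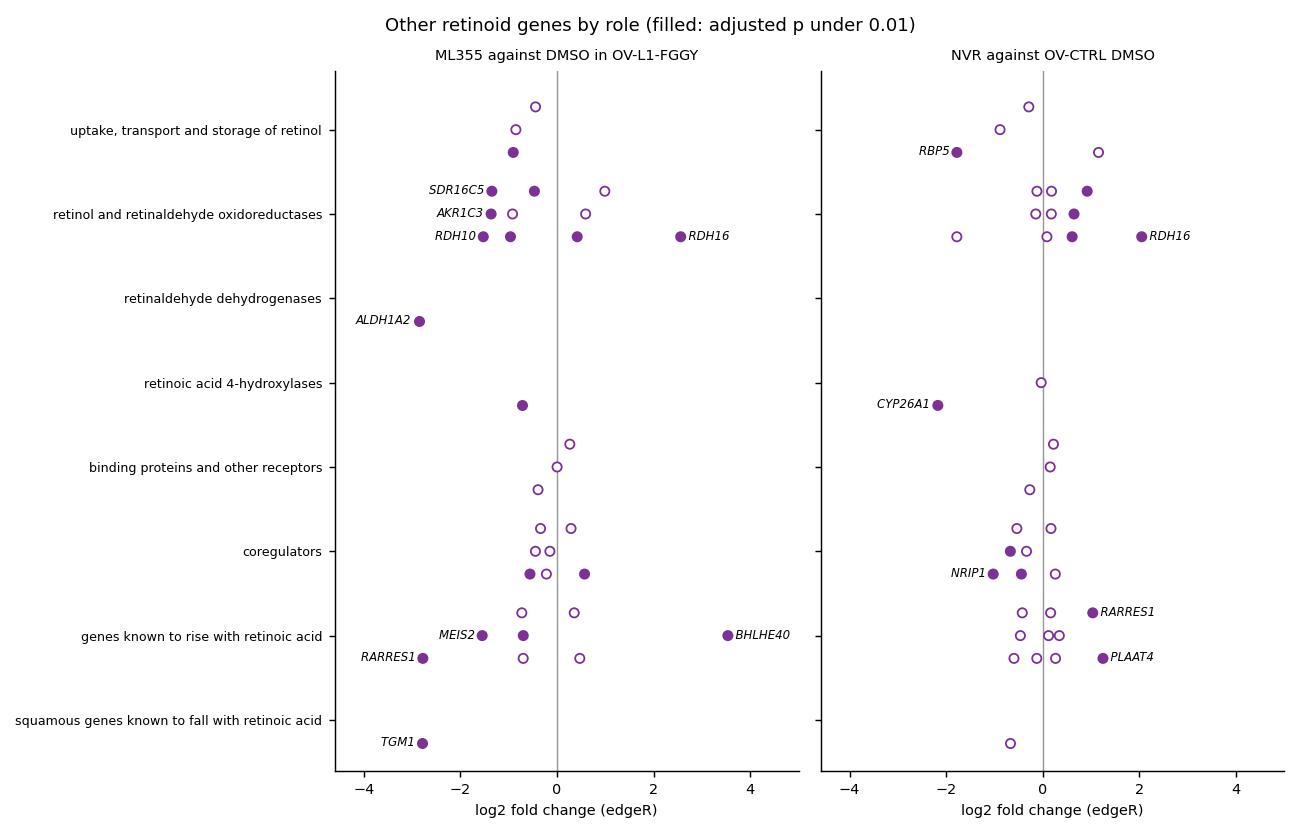
Log2 fold change (x axis, edgeR) of the other retinoid genes by role (y axis) for ML355 (against OV-L1-FGGY with DMSO) and NVR (against OV-CTRL); filled points had an adjusted p under 0.01, names mark filled points with a log2 fold change beyond 1 in either direction, and a gene with at most 3 counts over a group, or not reported here, is not drawn. *BHLHE40* lies at 3.54 and *RARRES1* at -2.78 in the ML355 panel, and *CYP26A1* at -2.17 in the NVR panel.

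Across the sides, 32 of the 41 other genes were called for OV-L1-FGGY against OV-CTRL (both with DMSO), 9 higher and 23 lower, beside 32.5% and 36.2% of all genes. Their median log2 fold change was -0.95 against -0.11 for all genes. Genes known to rise with retinoic acid gave 9 lower and 1 higher of 11, among them the mucin genes *MUC5AC* (from 58.8 CPM in OV-CTRL to 1.66, log2 fold change -5.13, SE 0.28, edgeR adjusted p = 9.18e-11) and *MUC5B* (-4.33, SE 0.20, edgeR adjusted p = 1.40e-11), whose repeats can share reads. *CD38*, a retinoic acid induced ectoenzyme, had 0 counts in OV-L1-FGGY with DMSO and was at least 52.8-fold lower than in OV-CTRL. *BCO1*, which cleaves carotene to retinaldehyde, was likewise at 0 and at least 21.1-fold lower.

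Among enzymes, *AKR1B10*, a retinaldehyde reductase with close relatives, had 3, 2 and 4 counts in OV-L1-FGGY with DMSO against 42264, 42251 and 41203 in OV-CTRL (-13.30, SE 0.30, edgeR adjusted p = 6.08e-15). *SDR16C5*, a retinol dehydrogenase gene, went the other way, with 243, 276 and 245 counts against 4, 2 and 4 (6.62, SE 0.37, edgeR adjusted p = 1.27e-10). *CYP26A1* and *CYP26B1* moved in opposite directions. *CYP26A1* had 1 count in all of OV-L1-FGGY with DMSO against 179 in OV-CTRL, a ratio of 134 with a 95% counting interval of 23.7 to 5307. *CYP26B1* was higher in OV-L1-FGGY with DMSO (1.53, SE 0.19, edgeR adjusted p = 1.74e-06). Of the coregulators, *PRAME* fell by 1.72 (SE 0.10, edgeR adjusted p = 1.07e-10) and *TBL1XR1* rose by 1.42 (SE 0.12, edgeR adjusted p = 1.22e-08).

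For NVR against DMSO in OV-L1-FGGY, which crosses the same sides and shares libraries with the comparisons above, 28 of 41 were called, 20 higher and 8 lower, beside 38.2% and 35.4% of all genes (median log2 fold change 0.89 against 0.08). *TGM2*, a transglutaminase that retinoic acid is known to induce, was higher by 1.98 (SE 0.13, edgeR adjusted p = 5.55e-10), and *TGM1* was lower by 1.96 (SE 0.38, edgeR adjusted p = 1.78e-04).

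The genes whose log2 CPM over the 12 libraries was most like that of *RARB* were *IQCE* (Pearson r = 0.995), *CTNS* (0.995) and *PITPNA* (0.994), among the 14308 genes whose mean reached 1 CPM, of which 889 had r over 0.9. Those most like *ALDH1A1* were *GALNT14*, *C2orf72* and *GPR27*, which were at 0 CPM in OV-L1-FGGY with DMSO and with ML355 and lay at 55.3, 9.87 and 8.16 CPM in OV-CTRL and 32.2, 6.49 and 5.45 CPM in the NVR-labelled libraries. With *ALDH1A1*, 2465 genes had r over 0.9. These correlations share the split between the sides and the 12 libraries, and are given as a description.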

How the data were processed

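The deposited file holds raw counts per Ensembl gene for 12 libraries, which the authors made by aligning reads to hg38 with STAR 2.5.3a and counting with HTSeq 0.11.2. The annotation release, the strand setting and the treatment of multi-mapped reads are not given in the sources used here. The labels name a TruSeq kit and the methods an NEB kit. Columns were matched to samples by their titles. Of 58302 identifiers, 57532 were matched to GENCODE 44 for symbols and exon lengths.

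Counts were fitted in R 4.3.3 with edgeR 4.0.16 (filterByExpr, TMM, robust quasi-likelihood fit of the 4 groups, Benjamini-Hochberg adjusted p under 0.01, the study's threshold). No fold change is given where both groups were at or under 3 counts, and a group at 0 gave a bound against 3 counts per library. Genes at or under 3 counts in both groups stay in the shares and medians of all genes. Counting intervals cover counting error only. The 10 genes, the 57 other genes and the marker lists (squamous, adenocarcinoma, neuroendocrine, fibroblast, leukocyte) were chosen with earlier results of these data known. Other genes named were taken from up to 3 per list and comparison with the smallest adjusted p, every gene of a list with 5 members or fewer, and the 3 genes most like *RARB* and *ALDH1A1*. Some genes that this rule names are not reported here, though they stay in the counts of their lists. Alternatives were DESeq2 1.42.0, limma voom (3.58.1), other scalings, filters and thresholds, only the 2 groups compared, a replicate block and each library left out. The fits were tested on simulated data. Python 3.11.15 was used for tables and plots.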

Additional observations from a re-analysis of the deposited data

How the results depend on the processing

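Of 1332 values of single genes under the alternatives, over 97 results, 1248 kept their direction and their side of the threshold, 50 lost the call, 14 gained it and 20 changed sign. None of the sign changes belonged to a called gene. They were *PPARD* for ML355 against DMSO (library size alone -0.13, at least 10 counts in every library -0.0209, no filter -0.0183, leave-one-out -0.0915 to 0.0561); in the NVR-labelled libraries against OV-CTRL, *ALDH1A3* (library size alone -0.0362, leave-one-out -0.17 to 0.29), *RARA* (leave-one-out -0.20 to 0.0626), *RXRA* (leave-one-out -0.18 to 0.0111), *CYP26B1* (DESeq2 size factors 0.00644, DESeq2 0.00373, leave-one-out -0.30 to 0.14) and *RXRB* (library size alone -0.00356); *CRABP2* for OV-L1-FGGY against OV-CTRL (leave-one-out -0.24 to 0.0338); and *RXRA* for NVR against DMSO in OV-L1-FGGY (library size alone -0.19, leave-one-out -0.0752 to 0.11). The library size alone shifted the median of all genes from 0.00 to -0.13 for ML355 and -0.15 for NVR against OV-CTRL, and from 0.08 to -0.16 for NVR against OV-L1-FGGY.

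Counts of the 10 genes stayed within 1.5 times of the reported ones under every alternative run. Counts of the other retinoid genes moved further in some. When changes under 1 on the log2 scale were not counted, 9 rather than 17 were called for ML355 and 7 rather than 12 for NVR against OV-CTRL, which also gave 7 with only the 2 groups compared and 6 to 13 with a library left out. Requiring at least 10 counts in every library, which tested fewer of them (26), gave 20 rather than 32 for OV-L1-FGGY against OV-CTRL and 17 rather than 28 for NVR against DMSO.

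The replicate numbers were not taken to pair the libraries, since libraries of equal number deviated together by a mean correlation of only -0.0376, -0.0443, -0.00762 and -0.0495 in the 4 comparisons. Single pairs ran from -0.354 to 0.170 for NVR against OV-CTRL and from -0.124 to 0.0546 in the other comparisons. In the same order of comparisons, 0, 2, 2 and 0 libraries correlated best with the library of their own number. With the number as a replicate block, the 10 genes gave 5, 2, 7 and 7 calls for ML355, NVR against OV-CTRL, OV-L1-FGGY against OV-CTRL and NVR against OV-L1-FGGY, and the others 16, 11, 31 and 28. Of the genes named, the block took away the call of *TBL1XR1* alone (NVR against OV-CTRL, -0.45, edgeR adjusted p = 0.0110).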
